A study of Mus musculus with 12 samples.

Results

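Solute carriers are the transporters named Slc followed by a family number. In a table of cytosines from bisulfite-sequenced mouse mRNA, 39 of 2498 listed sites lay in 31 such genes, chosen by gene name alone, with the mitochondrial ADP/ATP carrier gene Slc25a4 left out. Bisulfite turns unmodified cytosine into a base read as T, while 5-methylcytosine (m5C) is still read as C, so the m5C level of a site is the percentage of its reads that kept C. The 12 libraries came from polyadenylated RNA of wild-type C57BL/6 mice aged 8 to 10 weeks: muscle had 4 libraries, all female, small intestine, lung and spleen each had a female and a male one, and heart and liver had 1 each, both female. No group carried a treatment or allele. The table gives 1 set of values per tissue, with the libraries already combined, so spread between animals cannot be given. Between heart, muscle or liver and small intestine, lung or spleen, tissue cannot be told apart from sex or from the number of libraries. Heart, muscle and liver are alike in sex, but muscle differs from heart and liver in the number of libraries. Small intestine, lung and spleen are alike in both, though the reads from each sex are not told apart.

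Solute carriers move amino acids, sugars, metals, nucleotides and inorganic ions across membranes, mostly by coupling to gradients instead of splitting ATP. Family 25 sits in the inner membrane of mitochondria and exchanges metabolites with the cytosol, which matters most in tissues of high oxidative demand such as heart and muscle. In mammalian mRNA, m5C is placed mainly by the methyltransferases NSUN2 and NSUN6.

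Of the 39 sites, 26 in 20 genes reached a level of 10% in at least 1 tissue at a coverage of 20 reads or more (66.7%, against 73.8% of all listed sites), and these are described one by one. A further 6 were covered but stayed lower. The remaining 7 had fewer than 20 reads in each of the 6 tissues: 1 of the 2 sites of the sodium-proton exchanger Slc9a2, both sites of the monocarboxylate transporter Slc16a7, and the sites of Slc4a10, Slc6a11, Slc38a9 and Slc14a2. Coverage in all 6 tissues was reached by 12 of the 39, and by 802 of the 2498 listed sites. The authors called 26 of the 39 in at least 1 tissue (66.7%), against 69.8% of all listed sites. By tissue, their calls covered 15 members in heart (52.4% of all covered sites there), 14 in liver (31.5%), 11 in muscle (53.0%), 7 in the small intestine (18.5%), 3 in lung (11.1%) and 1 in spleen (9.66%).

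Local sequence could be read for the site in Slc38a9, an amino acid transporter and arginine sensor of the lysosome, since it alone lay inside a RefSeq promoter window (GRCm38.p6, plus strand, chr13:112660764-112660793). It is shown as an example of a listed cytosine, which is the capital letter:
Slc38a9: ttcctgtttagaggaCtattctctctaagc
This site had no filled value in any tissue. It lies 4590 nt from the annotated gene start, so it is not the member nearest to a start. The 8 members within 1 kb of an annotated start lay outside such windows. As a check of position and strand, 130 listed sites of any gene lay in such windows, and 130 of them had C on the listed strand.

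Over the covered members, the median level was 13.6% in heart (27 sites), 12.1% in muscle (26), 11.1% in liver (25), 6.35% in the small intestine (26), 4.75% in lung (20) and 2.51% in spleen (13). Over all listed sites the medians were 11%, 11.8%, 6.38%, 4.08%, 1.90% and 1.17% in the same order. Levels of at least 10% were found at 17 heart sites (57.9% of all listed sites in heart), 13 muscle sites (61.3%), 14 liver sites (36.5%), 9 small intestine sites (24.2%), 4 lung sites (13.7%) and 2 spleen sites (12.2%). As shares of the covered members these were 63.0%, 50%, 56%, 34.6%, 20% and 15.4%. These medians rest on different sites in each tissue. Over the same 12 members covered in all 6 tissues, the median was 28.8% in muscle, 19.1% in heart and 11.6% in liver. It was 4.75% in lung, 3.82% in the small intestine and 2.64% in spleen. The 802 listed sites so covered had medians of 12.2%, 10.9%, 5.11%, 1.78%, 2.93% and 1.31% in that order of tissues. The muscle median of the 12 members thus stood above that of heart. Among these 12, the highest level of the 6 tissues lay in muscle at 6 and in heart at 4. A gap between medians is not a median of differences at single sites, and it changes with the set of sites. The 24 members tested in both tissues are a larger set than the 12. Over those 24, the median of heart minus muscle was 0.946 points. Heart had the higher level at 14 of the 24 and muscle at 9. The median of differences over the 12 alone was not computed. The highest member in heart was Slc16a13 at 48% of 25 reads, a value that the authors did not call. It was Slc25a12 in muscle at 55.3%, Slc13a3 in liver at 30.3% and Slc16a13 in the small intestine at 48.5%. In lung it was Slc43a2 at 19%, and in spleen Slc25a51 at 11.7%.

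**Figure D1:**
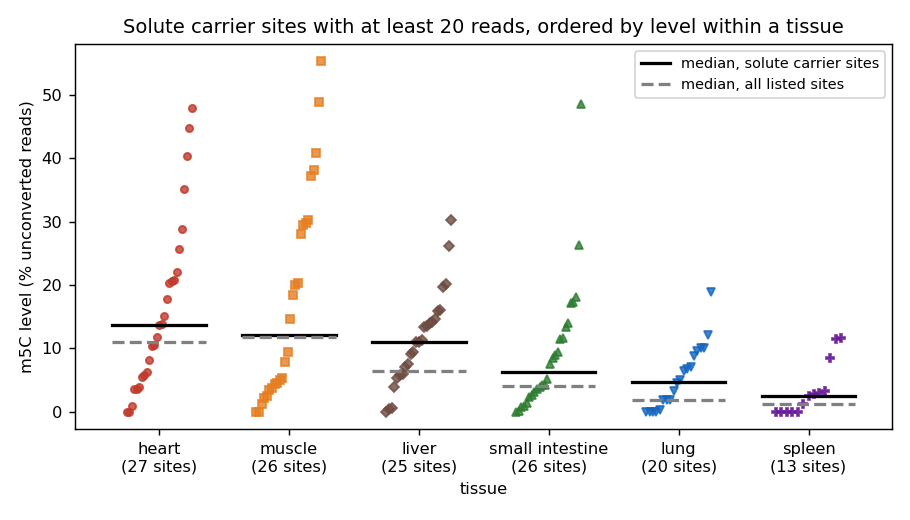
Each point is 1 solute carrier site with at least 20 reads, placed by tissue and ordered by its m5C level (%), with the median of these sites as a solid line and that of all listed sites as a dashed line. Each tissue has its own set of covered sites: the solute carrier medians run from 13.6% in heart to 2.51% in spleen and lie above those of all listed sites. On the 12 sites covered in all 6 tissues, the muscle median (28.8%) is above the heart median (19.1%).

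Tissues were compared at each site by a two-sided Fisher's exact test of the reads that kept C against those that did not, with p adjusted by the Benjamini-Hochberg method over all listed sites covered in both tissues. A call needed an adjusted p below 0.05 together with levels that lay 10 or more points apart. These tests compare the tissue columns and cover counting error alone, and reads without molecular identifiers are not independent molecules. Of 267 tests of solute carrier sites over 15 pairs of tissues, 85 were called (31.8%), against 23.5% of 17579 tests of all listed sites. The calls fell on 16 of 31 sites with a pair tested (51.6%), in 12 genes, against 57.7% of 1916 listed sites with a pair tested. The share was thus above that of all listed sites when counted by test and below it when counted by site. Tests that share a tissue or a site are not independent of each other.

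The mitochondrial carriers had 5 sites in 5 genes. Slc25a12 had no pair tested. Of the other sites 2 had a called pair, against 57.7% of all listed sites with a pair tested. Slc25a11, the oxoglutarate carrier that exchanges malate in the malate-aspartate shuttle, was the most deeply read of the 5. Its site on chromosome 11 at 70645560 (minus strand, mm10) had 38.2% in muscle (95% Wilson interval 37.2 to 39.2, 8728 reads), 17.8% in heart (17.2 to 18.5, 13275 reads), 3.90% in liver (3.24 to 4.69), 1.83% in lung (0.716 to 4.62), 1.37% in the small intestine (0.979 to 1.90) and 0 of 243 reads in spleen, where the interval reaches 1.56%. Muscle and heart stood apart from the other 4 tissues and from each other, and 9 of 15 pairs were called. Heart minus muscle was -20.4 points (95% interval -21.6 to -19.2), and heart minus liver was 13.9 points (12.9 to 14.9).

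Slc25a51, the mitochondrial NAD+ carrier, had a site on chromosome 4 at 45398952. Its level was 40.9% in muscle (38.2 to 43.7, 1214 reads), 22% in heart (19.5 to 24.7), 20.1% in liver (18 to 22.4), 14.1% in the small intestine (11.9 to 16.6), 11.7% in spleen (8.12 to 16.6) and 9.52% in lung (6.96 to 12.9). Muscle was again highest, but here no tissue was near 0, and 8 of 15 pairs were called, 5 of them with muscle higher. The difference of heart from muscle was -18.9 points (Fisher's exact adjusted p = 4e-20).

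Slc25a12, the aspartate-glutamate carrier of the same shuttle as Slc25a11, was covered by 20 reads in muscle alone, where 26 of 47 reads were unconverted (55.3%, 41.2 to 68.6). That site lies 1201 nt past the annotated end of the gene. It cannot be set against another tissue.

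Slc25a23, a calcium-regulated carrier of ATP-magnesium and phosphate, had 11.4% in liver (10.3 to 12.6, 3006 reads), 10% in lung, 9.50% in muscle, 8.51% in the small intestine and 8.10% in heart. None of its 10 pairs was called. The interval of heart minus liver was -5.76 to -0.283 points, and that of small intestine minus lung, with 94 and 60 reads, was -12.4 to 7.63.

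Slc25a5, an ADP/ATP carrier of broad expression, had no unconverted read among 277 in heart, 173 in muscle and 306 in spleen, and 0.631% in liver (5 of 793), 0.317% in lung and 0.171% in the small intestine (4 of 2345). No pair was called out of 15, and the authors called it in no tissue. A pseudogene copy is annotated, and how the authors assigned reads between the copies was not analysed here.

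**Figure D2:**
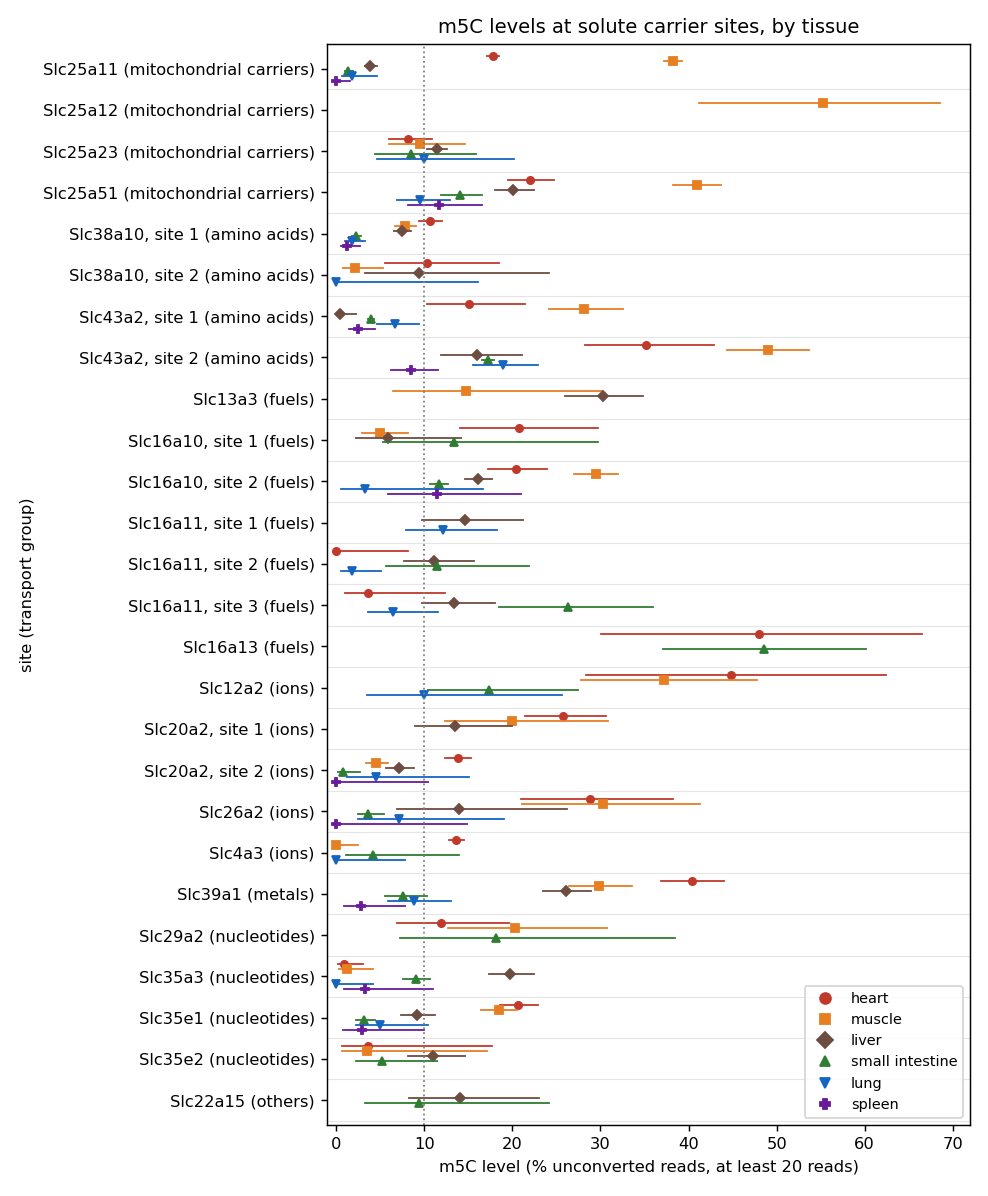
Points are m5C levels (%) of the 26 named solute carrier sites in each tissue with at least 20 reads, lines are 95% Wilson intervals, and the dotted line marks 10%; sites of 1 gene are numbered in genome order. Slc25a11 and Slc25a51 are highest in muscle (38.2% and 40.9%), Slc39a1 in heart (40.4%), Slc35a3 in liver (19.8%) and Slc16a11 site 3 in the small intestine (26.3%).

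Amino acid carriers had 6 sites in 4 genes, with 4 sites covered. Of these 4, 2 were called in some pair, against 57.7% of all listed sites with a pair tested. Both called sites belong to Slc43a2, a transporter of large neutral amino acids, and are adjacent cytosines on chromosome 11 at 75577349 and 75577350 (plus strand), 226 and 225 nt from the annotated end of the gene. At 75577350 the level was 49% in muscle (44.3 to 53.6), 35.2% in heart (28.2 to 42.9), 19% in lung (15.5 to 23), 17.3% in the small intestine (16.6 to 18, 11587 reads), 16% in liver (11.9 to 21.1) and 8.53% in spleen (6.23 to 11.6). At 75577349 it was 28.1% in muscle, 15.1% in heart, 6.68% in lung, 3.98% in the small intestine, 2.51% in spleen and 0.410% in liver. The upstream cytosine was the lower of the 2 in each tissue, and muscle was above heart at both, with heart minus muscle at -13.1 and -13.8 points. The authors, however, called both cytosines in heart and neither in muscle. Neighbouring cytosines are read by largely the same reads, so these are not separate observations, and incomplete conversion at such neighbours was not tested. Lung above spleen at 75577350, by 10.4 points (5.82 to 15.1; Fisher's exact adjusted p = 0.002), was the single member called between those tissues.

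Slc38a10, a member of the sodium-coupled neutral amino acid family, had 2 sites 3315 nt apart, with none of their 21 pairs called. At 120105178 the level was 10.6% in heart (9.36 to 12), 7.82% in muscle, 7.49% in liver, 2.28% in the small intestine, 1.79% in lung and 1.19% in spleen. Several of these differences had small p-values, such as 8.32 points between heart and small intestine (6.96 to 9.77; Fisher's exact adjusted p = 5.8e-38), and stayed under the minimum of 10 points. At 120108493 it was 10.3% of 87 reads in heart, 9.38% of 32 in liver, 2.14% of 187 in muscle and 0 of 20 in lung, where the interval reaches 16.1%.

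The fuel families, grouped by family number as carriers of sugars, monocarboxylates and carboxylates, had 11 sites in 7 genes. Of 9 covered sites 4 had a called pair, against 57.7% of all listed sites with a pair tested. All 4 belong to Slc16a10 and Slc16a11. Slc16a10 carries aromatic amino acids although its family is named for monocarboxylates. Its site at 40141992 on chromosome 10, 278 nt from the annotated gene start, had 29.5% in muscle (27 to 32), 20.4% in heart (17.2 to 24), 16.1% in liver (14.6 to 17.7), 11.7% in the small intestine (10.7 to 12.7, 4047 reads), 11.4% in spleen (5.91 to 21) and 3.33% in lung (0.591 to 16.7, 30 reads). Its other site, 65783 nt away at 40076209, had 20.8% in heart (14 to 29.7), 13.3% in the small intestine, 5.88% in liver and 4.96% in muscle (2.98 to 8.16). The 2 sites thus ran in opposite directions between heart and muscle. Heart minus muscle was 15.8 points at 40076209 (8.34 to 25; Fisher's exact adjusted p = 5.7e-05) and -9.05 points at 40141992 (-13.1 to -4.71; Fisher's exact adjusted p = 0.0003), the latter under the minimum of 10 points. The difference between the 2 sites was not tested.

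Slc16a11, a monocarboxylate transporter of liver, had 3 sites within its first 738 nt, without 20 reads in muscle or spleen. At 70214433 on chromosome 11 the level was 26.3% in the small intestine (18.5 to 36, 95 reads), 13.3% in liver (9.70 to 18.1), 6.49% in lung (3.57 to 11.5) and 3.64% in heart (1.003 to 12.3). Small intestine was called above each of the other 3 tissues, with differences of -22.7 points for heart minus small intestine, -13 for liver minus small intestine and 19.8 for small intestine minus lung (Fisher's exact adjusted p = 0.00081, 0.022 and 0.0004). At 70214389, 44 nt upstream, it was 11.5% in the small intestine, 11.1% in liver, 1.79% in lung and 0 of 43 reads in heart. Heart minus liver was -11.1 points there (-15.6 to -2.21; Fisher's exact adjusted p = 0.044). At 70214202 liver had 14.6% and lung 12.2%, and their pair was not called. Slc16a13, a neighbouring gene of the same family on the opposite strand, had 48.5% of 68 reads in the small intestine (37.1 to 60.2) and 48% of 25 reads in heart (30.03 to 66.5). Its pair was not called, with an interval from -21.9 to 21.2 points.

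Slc13a3, a sodium-coupled dicarboxylate carrier, had 30.3% in liver (26 to 34.9, 413 reads) and 14.7% of 34 reads in muscle (6.45 to 30.1). That difference of -15.6 points, muscle minus liver, was not called (-25 to 0.432; Fisher's exact adjusted p = 0.13). The fructose transporter Slc2a5 had 2 of 47 unconverted reads in the small intestine and 0 of 23 in liver, and Slc16a6 stayed between 0.862% and 5.88% in heart, muscle and small intestine.

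**Figure D3:**
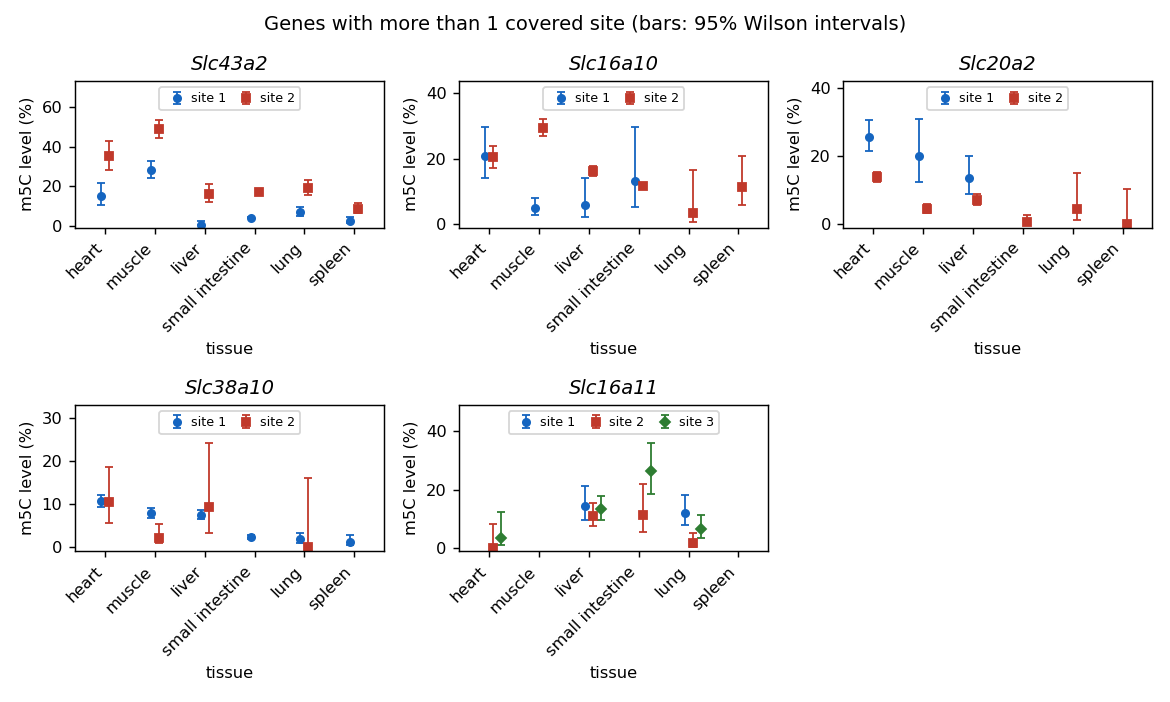
Points are m5C levels (%) of the separate covered sites of Slc43a2, Slc16a10, Slc20a2, Slc38a10 and Slc16a11 by tissue, numbered in genome order, and bars are 95% Wilson intervals. The Slc43a2 sites keep the same order in each tissue, while in Slc16a10 muscle is low at site 1 (4.96%) and highest at site 2 (29.5%).

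Ion carriers had 8 sites in 6 genes. Of the 6 covered sites 5 had a called pair, against 57.7% of all listed sites with a pair tested. Groups of so few sites were not tested against that share. Slc4a3, a chloride-bicarbonate exchanger of heart and brain, had 13.6% of 6437 reads in heart (12.8 to 14.5) at 75551798 on chromosome 1. There were 0 of 153 unconverted reads in muscle and 0 of 45 in lung, with intervals reaching 2.45% and 7.87%, and 2 of 48 in the small intestine. Heart was called above muscle and lung, by 13.6 points in each pair (Fisher's exact adjusted p = 3.1e-09 and 0.0076). The pair with small intestine was not called. Liver had no filled value at this site.

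Slc20a2, a phosphate transporter, had 2 sites 25324 nt apart on chromosome 8. At 22560603 the level was 13.8% in heart (12.4 to 15.3, 2067 reads), 7.11% in liver, 4.55% of 44 reads in lung, 4.49% in muscle, 0.763% in the small intestine and 0 of 33 reads in spleen. Heart was called above small intestine and spleen there. At 22535279 it was 25.7% in heart (21.4 to 30.6), 20% of 70 reads in muscle (12.3 to 30.8) and 13.5% in liver (8.92 to 19.95), and heart was called above liver by 12.2 points (4.45 to 18.9; Fisher's exact adjusted p = 0.008). Both sites were highest in heart.

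Slc26a2, a sulfate transporter known for its part in cartilage, had 30.3% of 76 reads in muscle (21.1 to 41.3), 28.8% of 104 in heart (21 to 38.2), 14% of 50 in liver, 7.14% of 42 in lung, 3.66% of 655 in the small intestine (2.47 to 5.39) and 0 of 22 in spleen. Muscle and heart were each called above small intestine, lung and spleen, and liver above small intestine. The site lies 1996 nt past the annotated end of the gene. Slc12a2, the sodium-potassium-chloride cotransporter, had 44.8% of 29 reads in heart (28.4 to 62.5), 37.2% of 86 in muscle (27.7 to 47.8), 17.3% of 75 in the small intestine and 10% of 30 in lung. Heart and muscle were each called above the other 2 tissues at that site, though with 29 reads in heart the interval is wide. The covered Slc9a2 site had 6.25% of 32 reads in heart and 4.41% of 68 in muscle.

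Slc39a1, a zinc importer of the plasma membrane, was the 1 metal carrier listed and had the most called pairs, 11 of 15. At 90251701 on chromosome 3 its level was 40.4% in heart (36.9 to 44, 735 reads), 29.9% in muscle (26.4 to 33.6), 26.1% in liver (23.5 to 28.9, 1034 reads), 8.84% in lung (5.91 to 13), 7.55% in the small intestine (5.50 to 10.3) and 2.78% in spleen (0.949 to 7.85). Heart, muscle and liver formed an upper set, with heart above muscle by 10.5 points (5.43 to 15.5; Fisher's exact adjusted p = 0.0003) and above liver by 14.3 points (9.85 to 18.7). The 3 other tissues lay below 10% and were not called apart. A pseudogene of this gene is annotated as well.

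Nucleotide and nucleotide sugar carriers had 5 sites in 5 genes. A pair was called at 2 of these sites, against 57.7% of all listed sites with a pair tested. Slc35a3, which brings UDP-N-acetylglucosamine into the Golgi, had a liver pattern at 116670944 on chromosome 3. The level was 19.8% in liver (17.3 to 22.5, 925 reads), 9.04% in the small intestine (7.62 to 10.7, 1327 reads), 3.23% in spleen, 1.18% in muscle (0.325 to 4.21), 0.855% in heart (0.235 to 3.06) and 0 of 87 reads in lung. Liver was called above each of the other 5 tissues, with 10.7 points for liver minus small intestine (7.79 to 13.8) and -18.9 for heart minus liver (-21.7 to -15.6). Slc35e1, an orphan member of the same family, had 20.7% in heart (18.6 to 22.9) and 18.4% in muscle (16.5 to 20.6), against 9.13% in liver, 4.96% in lung, 3.19% in the small intestine and 2.90% in spleen. Heart and muscle were each called above small intestine, lung and spleen, and heart above liver by 11.6 points.

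Slc29a2, a nucleoside transporter, had 20.3% of 74 reads in muscle, 18.2% of 22 in the small intestine and 11.9% of 101 in heart, with no pair called. Slc35e2 had 11% of 356 reads in liver, 5.15% in the small intestine, 3.57% of 28 in heart and 3.45% of 29 in muscle, also with none called, and the lncRNA gene Gm16023 overlaps the site. Slc35b2, which carries the sulfate donor PAPS into the Golgi, stayed between 0% and 5.99% in 5 covered tissues. Among the other carriers, Slc22a15 had 14.1% of 85 reads in liver and 9.38% of 32 in the small intestine. The carnitine transporter Slc22a5 stayed between 0% and 5.42% in 5 tissues. None of these was called in any pair.

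Counts by pair of tissues are of called members, and uncalled differences are left out of them. Muscle was called higher than lung at 9 of 17 members (42.2% of all listed sites) and lower at none (1.73%). In level alone, muscle was above lung at 13 of the 17 and below it at 3. Muscle was called higher than spleen at 8 of 13 (42.6%) and lower at none (2.03%). It was called higher than small intestine at 9 of 21 (37.4%) and lower at none (2.79%). Against liver, muscle was called higher at 5 of 20 (27.1%) and lower at 1 (3.28%). The median difference of muscle minus liver was -0.15 points against 5.16 over all listed sites. Heart was called higher than lung at 9 of 19 (33.7%) and lower at none (1.25%). It was called higher than spleen at 8 of 13 (34.3%) and lower at none (1.67%). Against small intestine, heart was called higher at 8 of 24 (27.5%) and lower at 1 (2.18%). Against liver, heart was called higher at 7 of 21 (19.6%) and lower at 2 (2.65%). These shares were not tested against those of all listed sites.

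Between heart and muscle, 3 of 24 members were called higher in heart (5.35%) and 4 were called higher in muscle (10.0%). Those called higher in heart were Slc4a3, Slc39a1 and Slc16a10 at 40076209. Those called higher in muscle were Slc25a11, Slc25a51 and both Slc43a2 cytosines. The authors called neither Slc43a2 cytosine in muscle. Liver was called higher than small intestine at 3 of 21 (8.09%) and lower at 1 (3.12%). It was called higher than lung at 3 of 18 (12.3%) and lower at none (1.59%). Liver was called higher than spleen at 2 of 13 (10.9%) and lower at none (2.21%). Slc39a1 and Slc35a3 were among the liver-higher members in all 3 of these pairs. Small intestine was called higher than lung at 1 of 18 members (3.89%), the Slc16a11 site at 70214433, and lower at none (1.14%). In Fisher's exact test no member of 13 was called between small intestine and spleen in either direction (3.36% and 0.946% of all listed sites), and 1 had an unadjusted p under 0.05. Lung was called higher than spleen at 1 of 12 (0.900%) and lower at none (0.337%). Pairs share tissues, so their counts are not separate evidence.

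**Figure D4:**
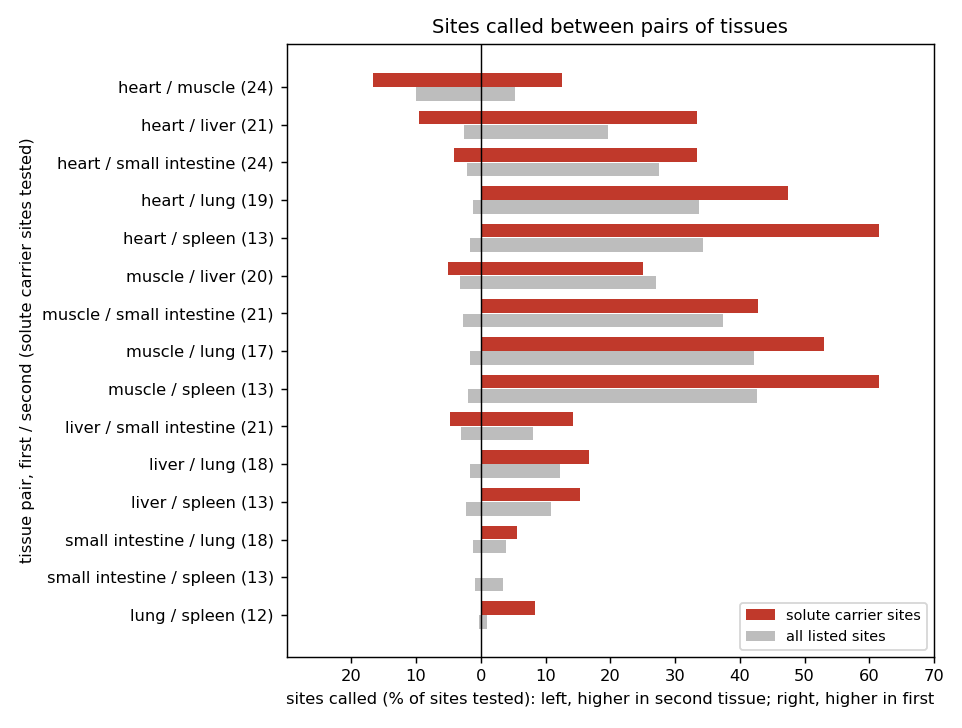
Bars give the percentage of tested sites called in each pair of tissues, to the right where the first tissue is higher and to the left where the second is higher, for solute carrier sites and for all listed sites; numbers in brackets are solute carrier sites tested. The longest bars are heart and muscle over spleen, 8 of 13 sites in each (61.5%). The shares of all listed sites there are 34.3% for heart and 42.6% for muscle. In each bar the 8 sites lie in 7 genes, as both adjacent Slc43a2 cytosines are among them.

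At the 12 members covered in all 6 tissues, the highest level lay in muscle at 6, in heart at 4 and in liver at 2. Among 802 listed sites so covered these tissues held 46.6%, 30.8% and 11.2%. A highest level need not be a called difference. Of the 2 in liver, Slc25a5 had only 0.631% there and no called pair. Those in muscle include both adjacent Slc43a2 cytosines. They also include Slc26a2 and Slc16a10 at 40141992, which were not called between heart and muscle. Of the 4 in heart, Slc38a10 at 120105178 had no called pair. Slc35e1 and Slc20a2 at 22560603, also highest in heart, were not called between heart and muscle. Median coverage over covered members ran from 108 reads in spleen to 255 in liver, and summed coverage over all listed sites from 261562 reads in lung to 4683960 in muscle. In bulk RNA, a low coverage from fewer cells of a type and one from less RNA per cell cannot be told apart. Of the tissue markers looked up, sites were listed for Myh4, Alb and Lyz1, and each had its highest coverage in its own tissue (muscle, liver and small intestine); heart, lung and spleen had no listed marker to check.

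Every member was matched by symbol to a RefSeq gene (assembly GRCm38.p6, which mm10 represents). Of the 39 sites, 8 lay within 1 kb of the gene start (20.5%, against 20.4% of 2249 sites in protein-coding genes), 9 within 1 kb of the end (23.1% and 18.8%) and 18 elsewhere (46.2% and 57.9%). There were 2 before the annotated start, both in Slc9a2 (5.13% and 1.02%), and 2 past the end, in Slc25a12 and Slc26a2 (5.13% and 1.82%). Sites with a called pair included Slc16a10 near the start, Slc43a2 near the end and Slc26a2 past it. Exon, coding region and UTR were not analysed here.

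Other membrane transport genes, taken by name as ABC transporters, Slco transporters, ATPases, ion channels and aquaporins, had 95 sites in 56 genes. Muscle was called higher than lung at 11 of 35 of their tested sites (42.2% of all listed sites) and than small intestine at 11 of 34 (37.4%). It was called higher than spleen at 8 of 21 (42.6%) and than liver at 6 of 27 (27.1%). It was called lower than liver at 1 site and lower than the other 3 at none. Heart was called higher than small intestine at 10 of 38 (27.5%) and than lung at 8 of 27 (33.7%). It was called higher than spleen at 6 of 21 (34.3%) and than liver at 5 of 28 (19.6%). It was called lower than liver at 2 sites and lower than the other 3 at none. Between heart and muscle, 1 of 45 was called higher in heart (5.35%) and 2 in muscle (10.0%). The highest mean levels over 6 tissues belonged to Atp6v0a1, a subunit of the proton pump of vesicles, to Abca2, a lipid transporter, and to Atp2a2, a calcium pump of muscle and heart. Atp6v0a1 had 41.3% in muscle, 39.7% in heart, 31.5% in liver, 21.1% in the small intestine, 13% in spleen and 7.51% in lung. Atp2a2 had 26.7% in heart, 22.1% in muscle, 13.6% in lung, 3.85% in liver, 2.87% in the small intestine and 0 of 67 reads in spleen. Abca2 was highest in liver with 28.1%, then heart with 20.1%, lung with 15.4%, muscle with 8.63%, small intestine with 2.27% and spleen with 0 of 29 reads.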

How the data were processed

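Polyadenylated RNA of 6 mouse tissues was bisulfite-treated with a modified commercial kit and sequenced, per the labels' protocols. The tools listed, per the submitters' processing notes, are HISAT2 2.10, SAMtools, bcl2fastq 2.17, Trimmomatic and cutadapt, with build mm10. Their roles and the way libraries were combined are not given in the sources used here. Deposited columns, per the file headers and the values, are of 4 kinds, for which the authors deposited coverage (counts of reads, from 10 up, else blank), the m5C level (a fraction, printed as percent), a p-value and a site call (TRUE or FALSE). The authors' deposited p-values were used only to describe their calls.

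Unconverted reads were recovered as level times coverage, which lay within 0.00018 of a whole number in 9926 filled cells. A coverage of 20 reads was required. Fisher's exact test (SciPy 1.17.1) was run per site for 15 pairs of tissues over the whole table, adjusted by Benjamini-Hochberg within each pair over all sites covered in both tissues (statsmodels 0.14.6), and tested on simulated data. Single levels carry 95% Wilson intervals and differences 95% Newcombe intervals, both covering counting error only. Sites were named where covered in at least 2 tissues with a level of 10% or a called pair, or covered in 1 tissue at 10%; of other transport genes, the 3 highest means over 6 tissues. Members, families and lists were chosen with earlier results of these data known. Alternatives changed the coverage minimum, the minimum difference and the sites tested. No local sequence beyond the promoter windows was used here.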

Additional observations from a re-analysis of the deposited data

How the results depend on the processing

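Of the counts and medians recomputed under the alternatives, 120 stayed close and 31 did not, where close means within 1.5 times for a count and, for a median, within the 95% Wilson interval of the site nearest to it. Over all 15 pairs, the 85 calls of 267 tests became 36 with a minimum difference of 20 points, and ranged from 67 to 125 under the other alternatives. Shares of all listed sites were not computed under the alternatives, so these counts describe the members alone. Named below are only the counts and medians that did not stay close. Others stayed close, such as muscle against liver with 4 calls and muscle against small intestine with 6, both with 20 points. With 20 points, the calls were 1 for heart against muscle, 4 for heart against small intestine, 3 for heart against lung, 3 for heart against spleen, 1 for liver against spleen, and 0 for heart against liver, liver against small intestine, liver against lung, small intestine against lung and lung against spleen. With no minimum difference, they were 11 for heart against muscle, 14 for heart against small intestine, 12 for liver against small intestine, 6 each for liver against lung and liver against spleen, 3 for small intestine against lung and 1 for small intestine against spleen. On sites called by the authors in another tissue, heart against muscle had 3, liver against small intestine 2 and liver against spleen 1. Heart against lung had 5 calls at a coverage minimum of 50, small intestine against lung had 0 on sites covered in all 6 tissues, and lung against spleen had 0 without neighbours within 10 nt, which removes both Slc43a2 sites. With 1 site per gene, lung had 2 members at 10% or more, and the medians were 12.8% in heart and 4.26% in small intestine. At a coverage minimum of 10 the medians were 11.9% in heart, 4.70% in small intestine and 1.19% in spleen, and at 50 that of small intestine was 5.15%. Under a changed minimum difference the same sites were tested and the threshold alone differed. Under the other alternatives the sites entered differed. Of the 85 called site and pair combinations, 49 fell short of 20 points, and none reversed; 40 more passed with no minimum difference. No paired analysis was possible because each tissue has 1 set of columns that does not tell its libraries apart, and leaving out replicates could not be run for the same reason.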

Other observations

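The authors' calls and the levels parted at a few members. Per the authors' deposited table, Slc43a2 was not called in muscle at either cytosine, with a p-value of 1 at 49% and 28.1% of 437 reads, while the same 2 sites were called in heart at 35.2% and 15.1%. Slc16a13 in heart (48% of 25 reads) and Slc12a2 in heart (44.8% of 29 reads) also had a deposited p-value of 1 and no call. In the authors' deposited table Slc12a2 in lung had a p-value of 6e-07 at 10% of 30 reads and no call. Over all listed sites, 475 of 3396 values that reached 10% on 20 or more reads carried no call, and the rule behind this was not analysed here.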
